A study of Xenopus laevis with 111 samples.

Results

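A set of 196 gene models of the *Xenopus laevis* spinal cord, out of 45099 in the tables, had higher mRNA levels in transected than in sham animals during the first 2 h after surgery and lower levels between 16 and 21 h. The members were selected on measured values. Each library's expected counts were scaled to counts per M (CPM). A transected and a sham library that shared series and hour made a pair, and D was the mean over pairs of the transected minus the sham value of log2(CPM + 1). A gene model belonged to the set when D was at least 0.3 over the 10 pairs of 0.5 to 2 h and at most -0.3 over the 9 pairs of 16 to 21 h. Of all gene models, 3.47% met the first condition, 4.76% met the second and 0.435% met both. The members were thus chosen by the differences in these windows, which are therefore given as a description, without a test.

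The animals were tadpoles at NF stage 50, a stage at which this frog regenerates the spinal cord, and each library was made from a pool of cords, taken caudal to the injury. Transected animals had the dorsal skin and muscle opened at mid-thoracic level and the cord cut (36 libraries), and sham animals had the same opening with the cord left whole (36 libraries). Animals of series S1 to S6 gave these libraries together with 8 libraries of 0 h, which both conditions share. Uninjured animals without surgery gave 25 libraries in series S7 and S8. In a second experiment, transected animals were kept in Torin1, an inhibitor of the kinase mTOR, or in its solvent DMSO during the first 24 h and were sampled at 24, 48 and 96 h, with 1 library for each treatment and day. The 105 libraries of the time series held between 9.96 and 76.6 M expected counts (median 18.3 M), and the 6 of the second experiment between 21.2 and 32.5 M.

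Cutting the cord opens vessels, kills cells near the cut and severs the axons that run through it, and injured tissue commonly switches on early response genes within minutes to hours and switches most of them off again. A difference from the control depends on the level in both conditions, and for this reason the levels are given beside the differences. In a bulk sample, fewer cells that express a gene and less mRNA per cell cannot be told apart. The members are described here without gene names, because none of the identifiers was found in a RefSeq table of 44456 genes (0 matches). No pathway or cell type list could therefore be applied to them, and the identity of the tissue was not checked against markers.

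D between 0.5 and 2 h ranged from 0.304 to 2.07 over the members, with a median of 0.671. D between 16 and 21 h ranged from -2 to -0.301, with a median of -0.436. In the median, the late deficit was thus smaller than the early excess. The members just inside the thresholds had an early D of 0.304 and 0.307 and a late D of -0.301 and -0.302, whereas the nearest gene models outside had an early D of 0.298 and 0.292 and a late D of -0.298 and -0.297. The mean level over the 72 transected and sham libraries had a median of 8.45 CPM over the members and ranged from 0.587 to 334 CPM, and 6 members were below 1 CPM.

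The early excess came from S1 and S2, whose animals shared a fertilization, and from S3, and the late deficit came from S5 and S6, and no series contributed to both windows. All 196 members had D above 0 in S1, 193 in S2 and 157 in S3. In the late window, 183 had D below 0 in S5 and all 196 in S6. The sign was the same in each of these 5 series for 154 members. At the level of single pairs, 58 members were above 0 in all 10 early pairs, 85 were below 0 in all 9 late pairs, and 28 met both conditions. The rule kept 87 members whichever single pair was left out.

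A single pair weighed most. At 17 h in S5 the median difference over the members was -1.15, and in the other 8 late pairs it lay between -0.622 and -0.177. Without this pair the rule gave 132 gene models, which included 127 of the 196 members. Without any other single pair of the rule, at least 176 members remained. With the median over pairs in place of the mean, 147 members met both conditions.

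The median difference over the members passed from positive to negative between 5 and 8 h. At 1 h it was 1.3 in S1, 0.563 in S2 and 0.362 in S3. In S3 it was 0.401 at 3 h, 0.173 at 4 h, 0.132 at 5 h and -0.00963 at 6 h. The S4 pair of the same 6 h gave -0.356, so that equal hours in different batches gave different values. At 10 h the median was -0.116 in S4 and -0.472 in S5, and at 11 h it was -0.12 in S4 and -0.581 in S5. At 12 h both series gave nearly the same value (-0.114 and -0.105), as did S5 and S6 at 16 h (-0.473 and -0.514).

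**Figure D1:**
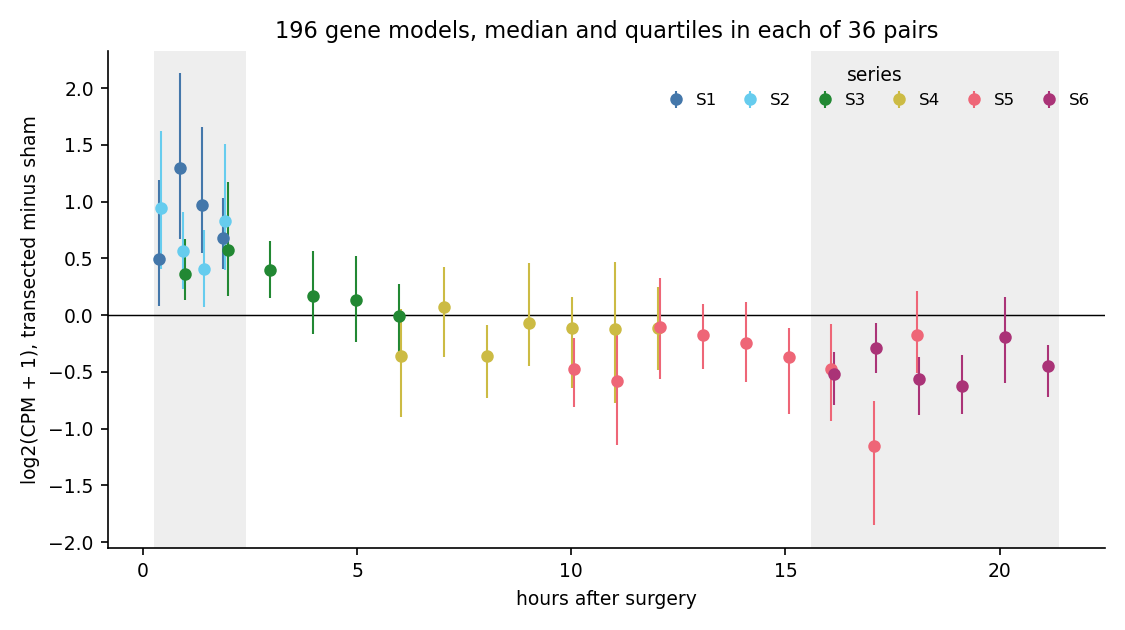
Difference in log2(CPM + 1) between the transected and the sham library of a pair (y axis) against hours after surgery (x axis). Points are medians over the 196 gene models, bars span the quartiles over the gene models, colours mark the series and grey bands mark the windows used to choose the gene models. Medians were all above 0 in the early band and all below 0 in the late band, where the 17 h pair of S5 lay lowest at -1.15.

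The hours between these windows were not used to choose the members, but many of the pairs came from series that were. S3, which held early pairs of the rule, gave 4 of the 5 pairs of 3 to 6 h. S5, which held late pairs, gave 5 of the 7 pairs of 11 to 15 h. A batch difference picked by the rule can recur there, so these windows are not an independent check. Among these series only S4 held no pair of the rule. Its 6 h pair had 137 members below 0 (median -0.356), whereas D in S3 over 3 to 6 h was above 0 for 147. Over 7 to 10 h, D in S4 was below 0 for 110 members and above 0 for 86 (median -0.0604), a nearly even split. Over all pairs of 7 to 10 h, D was above 0 for 15582 of the 31343 genes in the fit described next. Over all pairs of 3 to 6 h, it was above 0 for 13322 of them. The shares of all genes in S4 alone were not counted. The 34 transected and sham libraries of 3 to 15 h were fitted together with edgeR, with the pair as a block, and p-values were adjusted over all 31343 genes that passed the filter on low counts. All 196 members passed it. The replicates of a window were different hours, mostly of 1 or 2 series, and the adjusted p-values hence do not cover variation from one batch of animals to the next.

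By the size of D alone, 44 of the 196 members were still at 0.3 or more at 3 to 6 h (against 4.95% of all genes in the fit). In the same window 31 were at -0.3 or less (against 4.09%). At 7 to 10 h, 19 of the 196 were at 0.3 or more (against 6.42%) and 67 at -0.3 or less (against 3.45%). At 11 to 15 h the numbers were 8 (against 11.1%) and 84 (against 5.6%). The balance had thus turned before the late window of the rule.

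By the test at 3 to 6 h, 10 members were higher after transection (5.1%, against 2.31% of all genes tested) and 6 were lower (3.06%, against 0.625%). The estimate was above 0 for 119 of the 196, and the median log2 difference was 0.0965, against 0.00521 over all genes tested. Most members were thus not called different from sham in this window. The number of higher members ranged from 3 to 20 when 1 pair was left out: it was 3 without the 3 h pair of S3, 4 without the 4 h pair, 6 without the 6 h pair and 20 without the 5 h pair.

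At 7 to 10 h, 22 members were lower (11.2%, against 1.31%). No member was called higher in edgeR, against 3.07% of all genes tested, and 0 in DESeq2. At an unadjusted p under 0.05 in edgeR, 1 was higher, against 2584 of the 31343 genes tested. The lower count was 14 without the 8 h pair of S4 and also 14 without the pair as a block. At 11 to 15 h, 58 members were lower (29.6%, against 7.57%) and 1 was higher (0.51%, against 9.82%), a count that became 2 without the 12 h pair of S4, the 12 h pair of S5 or the 15 h pair of S5. The median log2 difference was -0.185 at 7 to 10 h and -0.357 at 11 to 15 h, against -0.0062 and -0.00788 over all genes tested. The lower share grew from window to window among the members, and it also grew among all genes tested (0.625%, 1.31% and 7.57%). In both of the later windows, 19 members were called lower (9.69%, against 1.05% of all genes tested). Of the 11 to 15 h pairs, 5 came from S5 and 2 from S4. D over those hours was below 0 for 163 members in S5 (median -0.313) and for 123 in S4 (median -0.188). Over both series together, it was above 0 for 17206 of the 31343 genes in the fit.

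**Figure D2:**
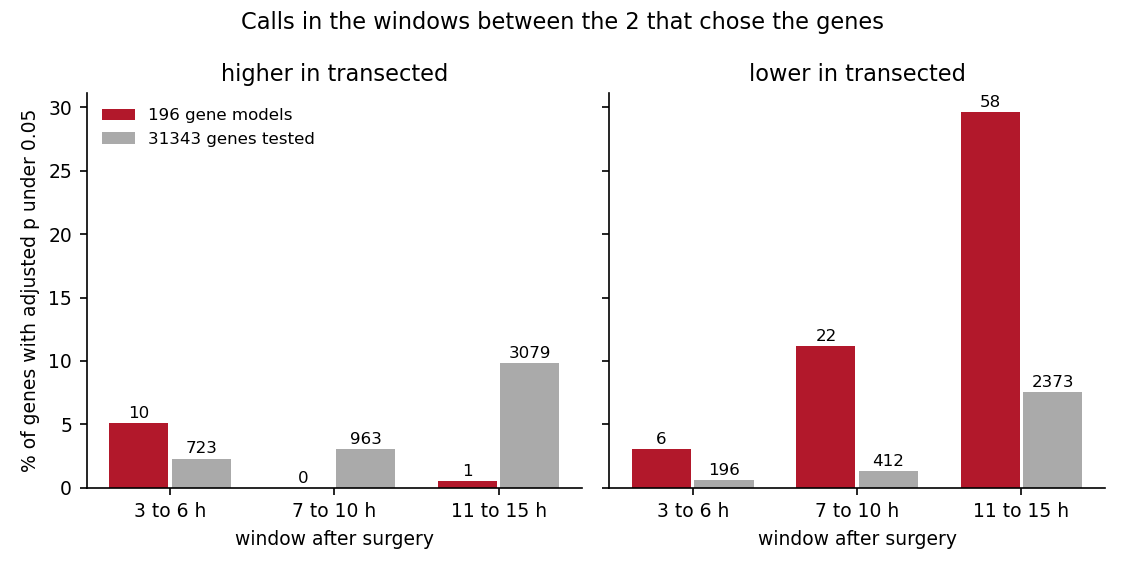
Share of genes with an adjusted p under 0.05 (y axis, per cent) in the 3 windows between those that chose the gene models (x axis), called higher in transected libraries on the left and lower on the right. Red bars are the 196 gene models, grey bars all 31343 genes tested, and the number on each bar is the count of genes. The share called lower rose from 3.06% to 29.6% among the 196 and from 0.625% to 7.57% among all genes tested.

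Over the 3 windows together, 130 members were not called in any (66.3%, against 81.2% of all genes tested), 61 were called lower at least once (31.1%, against 8%) and 11 higher at least once (5.61%, against 10.9%). The crossing itself was called for 6 members, which were higher at 3 to 6 h and lower at 11 to 15 h (3.06%, against 0.0702% of all genes tested), and 5 members were lower in all 3 windows (2.55%, against 0.313%). The change between the windows was tested directly as the difference of the 2 contrasts within the same fit. This change sets pairs mostly of S3 against pairs mostly of S5, and a difference between batches can enter it. It was called lower for 26 members in edgeR, against 0.689% of all genes tested. It was called higher for 0, against 0.316%, and for 0 in DESeq2. At an unadjusted p under 0.05 in edgeR it was higher for 4, against 1998 of the 31343 genes tested. Without the 5 h pair of S3 the lower count was 40, and without the 3 h pair of S3 it was 17.

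The other genes that were higher early took other courses. Of the 1087 gene models with an early D of at least 0.3 and a late D between -0.3 and 0.3, 1049 were tested, and 37 were higher (3.53%) and 53 lower (5.05%) at 11 to 15 h, both below the 9.82% and 7.57% of all genes tested. The 1087 were low in level, with a median of 1.49 CPM and 432 below 1 CPM. Their median SE in this window was 0.344, against 0.124 over all genes tested, and a wider SE leaves fewer genes to be called. Of the 281 with both D values at or above 0.3, 208 were higher (74%) and 1 lower (0.356%). The late D chose these sets too, and the difference between them and the 196 members was not tested.

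The level in each condition was compared with the 0 h libraries in S3 and S4, which hold no late pair of the rule. S5 was left out of this fit on the premise that a step within that series separates its 0 h library from its later hours. No value for this step is given here. At 3 to 6 h, 31 members were higher in transected libraries than at 0 h (15.8%, against 4.13% of all genes tested) and 1 was lower (0.51%, against 2.68%). In sham libraries 13 were higher (6.63%, against 0.4%) and 0 lower (against 0.0164%) in edgeR. At an unadjusted p under 0.05, 1 was lower, against 933 of the 30538 genes tested. At 7 to 12 h, 4 members were higher in transected libraries (2.04%, against 2.08%) and 2 lower (1.02%, against 0.665%). In sham libraries 16 were higher (8.16%, against 0.521%) and 0 lower (against 0.0229%) in edgeR. At an unadjusted p under 0.05, 33 were higher and 21 lower in sham libraries, against 1164 and 767 of the 30538 genes tested. The fitted median log2 difference from 0 h over the members was -0.192 in transected and -0.181 in sham libraries. All transected and sham libraries of 7 to 12 h came from S4, but the series term of the fit also drew on S3. Against the 0 h library of S4 alone, the medians were -0.129 in transected and -0.0767 in sham libraries of 7 to 10 h. At 11 to 12 h they were -0.0915 and -0.0712. For the 25 members of group 2, described below, the sham median was -0.322 in the fit, but 1.6 at 7 to 10 h against that library. The fitted estimate was below 0 for 129 members in transected and 121 in sham libraries, against 15125 and 15253 of the 30538 genes tested. The transected and sham contrasts share the 0 h libraries. Only 2 libraries of 0 h stood behind these values. Without that of S3 or that of S4, the higher counts at 3 to 6 h were 16 and 18 in transected and 3 and 3 in sham libraries. At 7 to 12 h they were 2 and 0 in transected and 7 and 4 in sham libraries, and no member was lower in transected libraries without the 0 h library of S4.

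Relative to the 0 h libraries of their own series, the conditions took different places in different series. S1 and S2 differed as well. In the early pairs of S1 the median over the members was 0.0592 in transected and -0.724 in sham libraries, so that the sham level there was below 0 h. The 0 h libraries of S1 were themselves high. Their median log2(CPM + 1) over the members was 4.56 and 4.18, against at most 3.11 in the uninjured libraries. In S2 the medians relative to 0 h were 0.683 in transected and 0.0279 in sham libraries, and in S3 they were 0.768 and 0.376. In the late pairs of S5, whose 0 h library was set apart on the premise named above, the median was -0.204 in transected and 0.456 in sham libraries. In S6 it was -0.439 in transected and -0.0445 in sham libraries, and 176 of the 196 were below 0 h in transected libraries against 108 in sham libraries. The level of the members, taken as the median log2(CPM + 1) in a library, had a median of 3.82 in the transected libraries of 0.5 to 2 h, of 2.04 at 11 to 15 h and of 1.95 at 16 to 21 h. In sham libraries it was 3.1, 2.63 and 2.44 in the same windows, and in uninjured libraries 2.44, 2.55 and 2.35. The uninjured level changed least between the windows, although only 2 uninjured libraries fell in the first, and the late transected level lay below that of both controls in its median.

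The uninjured animals showed how the members behave over the same hours without surgery. Of the 196 members, 9 had a positive and 4 a negative slope over the hours (adjusted p under 0.05 in edgeR), against 1.65% and 2.84% of all genes tested. With S7 alone the counts were 2 and 0, and with S8 alone 1 and 1. Among the uninjured libraries, their standard deviation of log2(CPM + 1) had a median of 0.433, against 0.236 for the 1087 and 0.321 for the 281 gene models described above. The sets differed in level, with a median of 8.45 CPM for the members, 1.49 CPM for the 1087 (432 below 1 CPM) and 7.54 CPM for the 281, and the pseudocount narrows the spread of low values. The median Spearman correlation between pairs of members over the 25 uninjured libraries was 0.187, against 0.125 and 0.0831, values that libraries of unequal depth or composition can share.

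The members were sorted by this covariation in the uninjured libraries, which the rule did not use, into 5 groups of at least 15 members and 75 members in no group. The grouping was chosen after the values were seen, and counts within groups are a description. Group 1 held 41 members, group 2 held 25, group 3 held 20, group 4 held 19 and group 5 held 16.

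In its median, group 4 was above 0 in every early pair and below 0 in every late pair, as were group 3 and the members in no group. The pairs of these windows chose the members. The median difference of group 4 was between 0.242 and 1.21 in the early pairs. In the late pairs it was between -1.31 and -0.44, without a steady order. At 11 to 15 h, 13 of its 19 members were lower (68.4%, against 7.57% of all genes tested), with a median log2 difference of -0.918 over the group. Of the 26 members called lower by the test between windows, 9 belonged to group 4 (47.4% of the group, against 0.689% of all genes tested). The level of the group was 1.96 to 2.39 in the 7 transected libraries of 11 to 15 h, with a median of 2.21. In the 7 sham libraries it was 2.48 to 3.02, with a median of 2.7, and in the 7 uninjured libraries 2.42 to 3.19, with a median of 2.71. The transected libraries of these hours did not overlap with either control. Against the 0 h library of S4, the group median at 11 to 15 h was 0.0909 in transected and 0.315 in sham libraries. Against that of S5, which was taken to be separated from these hours by a step, it was -0.513 in transected and -0.00662 in sham libraries. Over the uninjured hours, 7 of the 19 members had a positive slope (36.8%, against 1.65% of all genes tested, adjusted p under 0.05 in edgeR). The group was cut from these same uninjured libraries with the trend over hours left in, so a shared slope within it is partly built in.

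Group 5 had the lowest median late D of the 5 groups (-0.872), and 15 of its 16 members were below 0 in every late pair. At 3 to 6 h, 4 of its members were higher after transection (25%, against 2.31% of all genes tested). At 11 to 15 h, 6 were lower (37.5%, against 7.57%). Its level in sham libraries had a median of 4.48 at 0.5 to 2 h, of 3.26 at 3 to 6 h, of 3.23 at 7 to 10 h, of 3.55 at 11 to 15 h and of 4.05 at 16 to 21 h. Transected libraries had medians of 5.41, 3.65, 3.12, 3.33 and 3.42 in the same windows. These windows come from different series. Against the 0 h library of the same series, the late median over the group was 0.975 in sham and 0.212 in transected libraries of S5, and -0.145 in sham and -0.922 in transected libraries of S6. In S5 the sham level was above 0 h, but the 0 h library of that series was taken to be separated from these hours by a step. In S6 the sham level was near 0 h and the transected level was below it. In the uninjured libraries of 16 to 21 h the level was 3.4 to 3.9, with a median of 3.7, which lay between those of the sham libraries (3.88 to 4.35) and of the transected libraries (2.8 to 3.54) and overlapped with both. The ranges of sham and transected libraries were apart, in a window that chose the members. In the uninjured libraries of 3 to 6 h the group median was 4.32, above that of both conditions. Over the uninjured hours, 4 of the 16 members had a negative slope (25%, against 2.84% of all genes tested, adjusted p under 0.05 in edgeR). The slope estimate was below 0 for 15, against 14783 of 30743 genes tested. The group was cut from these same libraries, so a shared slope is partly built in. The 12 h pair of S5 went against the other pairs of its window, with a median difference of 0.244 in group 5.

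The late difference of group 1 was by far largest in a single pair, whereas several early pairs were large. All 41 members had D above 0 in each of S1, S2 and S3, and the median difference was largest in the 1 h pair of S1. There its median difference was 2.68, and the summed level of its 41 members was 3520 CPM in the transected and 457 CPM in the sham library. The 0 h libraries of S1 held 5054 and 2304 CPM. Against them, the early median over the group was -0.546 in transected and -2.24 in sham libraries, so both conditions lay below 0 h in S1. In S2 these medians were 0.794 and -0.0478, and in S3 they were 1.66 and 0.592. In the 17 h pair of S5 the median difference of group 1 was -2.45, with 64.2 CPM in the transected and 919 CPM in the sham library. At 16 h in S5 the sums in the transected and the sham library were 244 and 390 CPM, and at 18 h they were 119 and 101 CPM. The sham library of 17 h thus held more, and the transected library less, than the neighbouring libraries of the series. Only 4 of the members of group 1 were below 0 in every late pair. At 11 to 15 h, 3 were called lower (7.32%, near the 7.57% of all genes tested) and 1 higher (2.44%, against 9.82%). In S4 at the same hours 36 of the 41 had D above 0, and in S5 32 had D below 0.

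Group 2 swung in both directions. Its median difference was 1.88 at 4 h, -1.52 at 5 h and 1.66 at 6 h in S3, and 1.11 at 16 h, -1.41 at 17 h and 0.353 at 18 h in S5. It was the most variable group in uninjured libraries, with a standard deviation of 1.02, and its summed level ranged there from 88.2 to 2758 CPM. Just 1 of its 25 members kept the sign of D in all 5 series of the rule, since 24 were below 0 in the early pairs of S3. Group 3 shared its extreme pairs with group 1: its median difference was highest in the 1 h pair of S1 (1.94) and lowest in the 17 h pair of S5 (-1.32). It was below 0 in late pairs in which group 1 was above 0, as at 20 h in S6 (-0.458 against 0.253). The members in no group had a median late D of -0.425, and 44 of the 75 were below 0 in every late pair. Of all 75, 29 were called lower at 11 to 15 h (38.7%, against 7.57% of all genes tested).

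**Figure D3:**
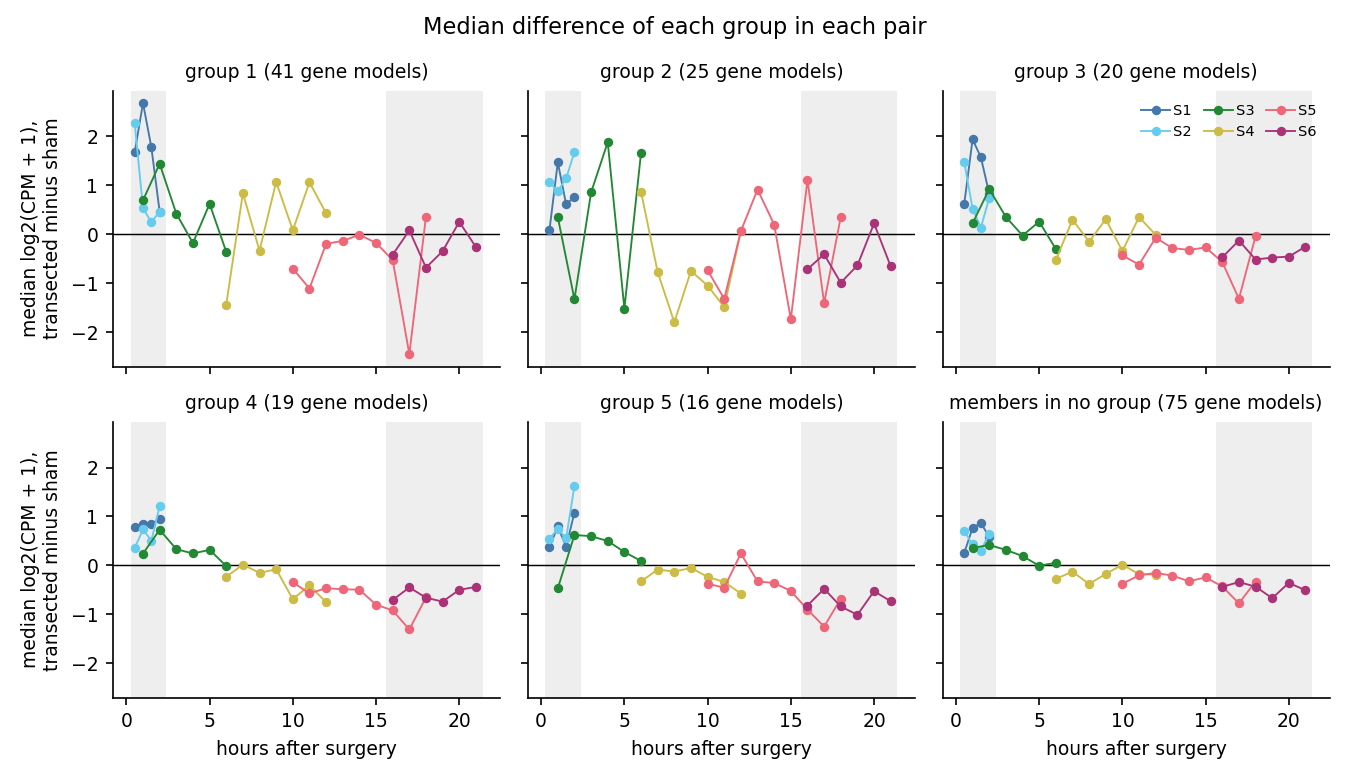
Median difference in log2(CPM + 1) between the transected and the sham library (y axis) in each pair, against hours after surgery (x axis), for 5 groups of gene models and for those in no group. Colours mark the series, lines join hours of 1 series and grey bands mark the windows used to choose the gene models. Groups 4 and 5 and the gene models in no group were below 0 in the late band, and groups 1 and 2 swung between neighbouring hours, to -2.45 in group 1 at 17 h.

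**Figure D4:**
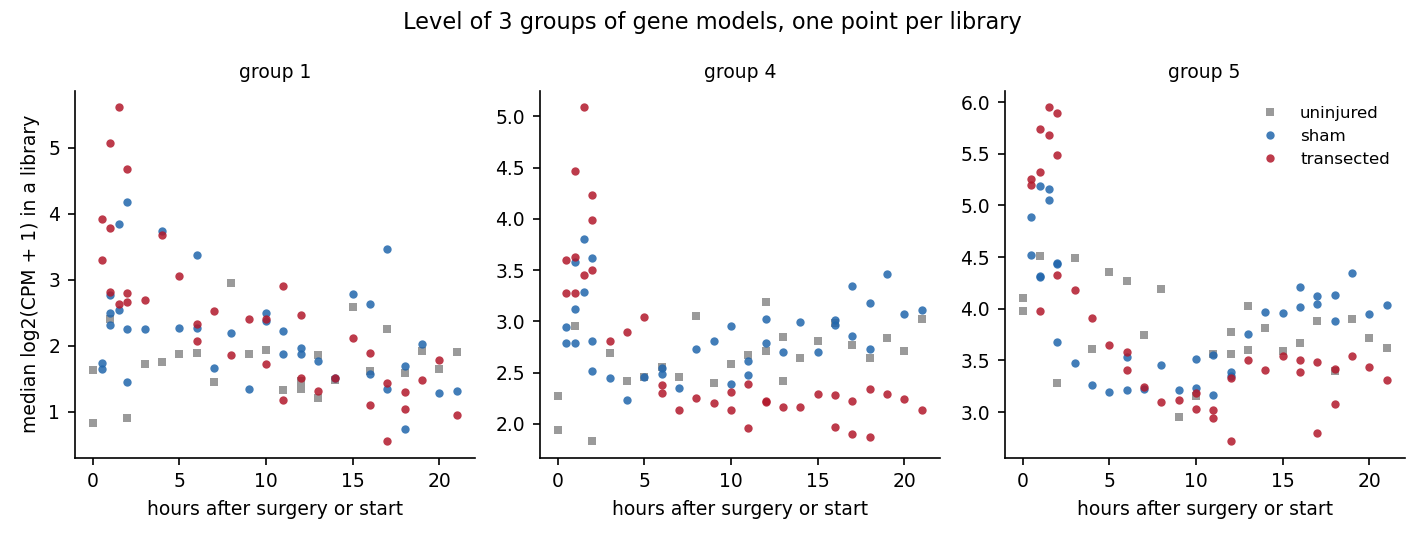
Median log2(CPM + 1) over the gene models of groups 1, 4 and 5 (y axis) in each transected (red), sham (blue) and uninjured (grey squares) library, against hours after surgery or after the start of the uninjured series (x axis). In group 4 the transected libraries of 11 to 15 h lay at 1.96 to 2.39, below the sham libraries at 2.48 to 3.02, and in group 5 the sham libraries of 16 to 21 h lay at 3.88 to 4.35, above the transected libraries at 2.8 to 3.54. The pairs of 16 to 21 h helped choose the gene models.

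The gene models described by their identifiers are those with the largest early D and the lowest late D among members with a mean of at least 1 CPM (2 of each). Xelaev18039067m.g had the largest early D (2.07, SD 0.895, n = 10 pairs). Its level in the transected libraries of 0.5 to 2 h ranged from 2.44 to 125 CPM with a median of 44.4 CPM, and in sham libraries from 0.639 to 33.6 CPM with a median of 6.67 CPM. At 0 h it was below 1 CPM in 6 of the 8 libraries, with 1.5 CPM in S6 and 4.57 CPM in S5. The gene model was thus nearly silent before surgery and was raised in both conditions, more so after transection.

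Xelaev18039067m.g declined faster in transected animals. In S3 the transected libraries gave 47.2 CPM at 3 h, 23.5 CPM at 4 h, 12.9 CPM at 5 h and 5.88 CPM at 6 h, and the sham libraries gave 11.5, 8.55, 11.1 and 6.5 CPM. In S4 the transected libraries gave 10.5 CPM at 6 h, 4.44 CPM at 7 h, 2.56 CPM at 8 h, 1.97 CPM at 9 h and 0.794 CPM at 10 h, and the sham libraries gave 9.14, 8.79, 6.42, 5.38 and 4.84 CPM. The transected level fell below that of sham between 5 and 7 h and stayed below it at all hours but 10 h, when S5 gave 3.16 CPM in the transected and 2.79 CPM in the sham library. At 11 to 15 h the 7 transected libraries ranged from 0.501 to 1.8 CPM with a median of 0.787 CPM, and the 7 sham libraries from 1.16 to 6.86 CPM with a median of 3.43 CPM. The ranges overlapped, but each transected library was below its own sham library. The log2 difference was -2.13 ± 0.30 (SE, adjusted p 2.56e-05 in edgeR), and the change from 3 to 6 h was -2.94 ± 0.40 (adjusted p 0.000327).

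Uninjured animals also raised this gene model in the first hours. Xelaev18039067m.g measured 0.52 CPM at 0 h in S7, 2.04 CPM at 1 h, 5.14 CPM at 2 h, 6.93 CPM at 3 h and 7.76 CPM at 4 h, after which it declined to 3.14 CPM at 8 h. Against the 0 h libraries of S3 and S4, the sham libraries of 3 to 6 h were higher by 5.43 ± 1.01 on the log2 scale (adjusted p 0.00474 in edgeR). These 0 h libraries held 0.0723 and 0.248 CPM, from 1 and 6 counts, so the size of the estimate rests on values near 0.

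Xelaev18039459m.g had the next largest early D (2.05, SD 0.396, n = 10 pairs) and was more abundant. The transected libraries of 0.5 to 2 h ranged from 155 to 700 CPM with a median of 360 CPM, and the sham libraries from 47.3 to 143 CPM with a median of 73.8 CPM, without overlap. The gene model was picked for its large D in this window, so the separation is a description. The 8 libraries of 0 h ranged from 3.55 to 20.2 CPM. The uninjured libraries of S7 again rose, from 10.7 CPM at 0 h to 43.6 CPM at 1 h and 52.1 CPM at 3 h.

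Between 3 and 6 h the transected libraries of Xelaev18039459m.g gave 64.5, 49.8, 23.4 and 23.9 CPM in S3 and 23.6 CPM in S4, and the sham libraries gave 35.7, 28, 24.5 and 18.1 CPM in S3 and 17.2 CPM in S4. The conditions came close at 5 h and were then within 0.435 of each other on the log2(CPM + 1) scale up to 9 h. At 10 h the pair of S4 gave -0.824 and that of S5 gave 0.112. At 11 to 15 h it ranged from 4.15 to 11.9 CPM (median 7.14 CPM) in transected and from 10.5 to 17.5 CPM (median 12.9 CPM) in sham libraries, and the log2 difference was -0.82 ± 0.14 (SE, adjusted p 0.000276 in edgeR). The ranges overlapped slightly. At 16 to 21 h, a window of the rule, they were apart, at 4.4 to 9.97 CPM in transected and 13.6 to 20 CPM in sham libraries. The change from 3 to 6 h to 11 to 15 h was -1.36 ± 0.21 (adjusted p 0.00146), and it missed the threshold without the pair as a block (adjusted p 0.0549 in edgeR).

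Xelaev18043503m.g had the lowest late D (-2, SD 1.31, n = 9 pairs) and belonged to group 1. Its sham libraries of 16 to 21 h ranged from 1.49 to 38.9 CPM with a median of 5.78 CPM, the highest being the 17 h library of S5, and its transected libraries from 0.472 to 1.07 CPM with a median of 0.887 CPM. The conditions did not overlap, but the gene model was picked for its low D in this window. At 11 to 15 h the transected libraries ranged from 0.467 to 1.97 CPM and the sham libraries from 2.4 to 11 CPM, again without overlap, with a log2 difference of -2.61 ± 0.45 (SE, adjusted p 0.000233 in edgeR).

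Between 3 and 6 h Xelaev18043503m.g showed no steady order. The transected libraries gave 2.81, 1.61, 3.65 and 0.593 CPM in S3 at 3, 4, 5 and 6 h and 1.19 CPM in S4 at 6 h, and the sham libraries gave 1.43, 4.42, 0.96, 1.8 and 9.08 CPM. The test of the change between the windows missed the threshold (-2.10 ± 0.70, adjusted p 0.167 in edgeR). The early excess was largest in S1 (D of 1.8) and smaller in S2 (0.64) and S3 (0.762).

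Xelaev18007448m.g belonged to group 5 and had the next lowest late D (-1.72, SD 0.236, n = 9 pairs). Its early D was only 0.365 (SD 0.712, n = 10 pairs), with 2 of the 10 pairs below 0 and -0.264 in S3, and the largest excess followed after 2 h. At 3 to 6 h the transected libraries gave 187, 180, 186 and 112 CPM in S3 and 191 CPM in S4, and the sham libraries gave 93.2, 50.5, 52.3 and 61.5 CPM in S3 and 43.3 CPM in S4. The conditions did not overlap, and the log2 difference was 1.58 ± 0.25 (SE, adjusted p 0.000261 in edgeR).

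The late deficit of Xelaev18007448m.g took different forms in different series. In S4 the sham library gave 43.3 CPM at 6 h, 68.5 CPM at 8 h, 162 CPM at 10 h and 325 CPM at 12 h, and in S5 it gave 502 CPM at 15 h and 565 CPM at 16 h. The 0 h libraries of these series held 109 and 283 CPM, so that the sham level rose above 0 h in S4. In S5 the sham level was also above 0 h, but the 0 h library of that series was taken to be separated from these hours by a step. In S6, which gave 6 of the 9 late pairs, the 0 h library already held 499 CPM, the sham libraries 375 to 536 CPM and the transected libraries 89.4 to 199 CPM, so that the sham level stayed near 0 h and the transected level was below it. The transected level stayed between 60.9 and 199 CPM in every library from 7 to 21 h. At 11 to 15 h the transected libraries ranged from 60.9 to 183 CPM and the sham libraries from 217 to 502 CPM, and the log2 difference was -1.41 ± 0.21 (SE, adjusted p 4.31e-05 in edgeR). The change from 3 to 6 h was -2.99 ± 0.32 (adjusted p 2.42e-05). The uninjured libraries of S7 and S8 ranged from 14.8 to 276 CPM over all hours, and the 8 libraries of 0 h, also from animals without surgery, from 37.9 to 679 CPM. The sham libraries of 16 to 21 h (375 to 565 CPM) lay above the former and within the range of the latter. Its counts were not whole in 100% of the time series libraries, so some of its reads were always shared with other transcripts.

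**Figure D5:**
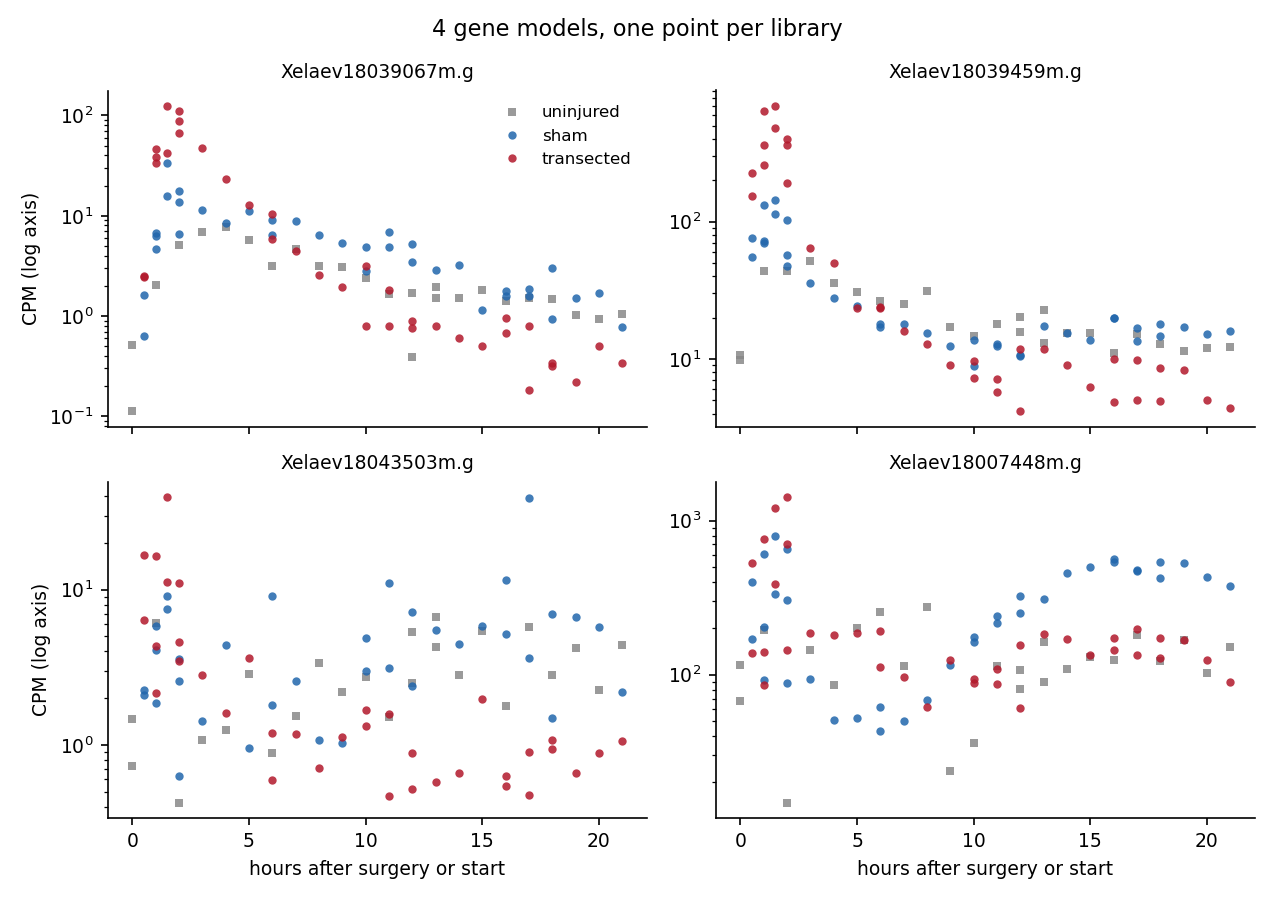
CPM (y axis, log scale) of 4 gene models in each transected (red), sham (blue) and uninjured (grey squares) library against hours after surgery or after the start of the uninjured series (x axis). Xelaev18039067m.g and Xelaev18039459m.g peaked within 2 h in transected libraries, at up to 125 and 700 CPM. In Xelaev18007448m.g the sham level was 565 CPM at 16 h in S5, and 797 CPM at 1.5 h in S1. Its transected level stayed at or below 199 CPM from 7 h on. Neighbouring hours can come from different series.

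RSEM divides a read among the transcripts it fits, and a count that is not whole marks such a division. Counts were not whole in a median of 71.0% of libraries for the members and of 86.7% for all genes in the fit. This frog carries related chromosome sets, and the values of near-identical copies are uncertain.

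The Torin1 experiment followed the members in transected animals beyond the hours of the rule. At 24 h, at the end of the treatment, 180 members had at least 5 counts in 1 of the libraries. Of these, 18 were at least 2-fold higher with Torin1 (against 0.849% of all genes) and 9 at least 2-fold lower (against 1.48%). At 48 h, 8 were higher (against 0.25%) and 10 lower (against 0.362%) of 192. At 96 h 1 was higher (against 0.0804%) and 15 lower (against 0.198%) of 188. With a pseudocount of 5 in place of 1, the higher and lower counts were 8 and 3 at 24 h, 0 and 2 at 48 h, and 0 and 5 at 96 h. The median log2 difference was 0.181 at 24 h, -0.195 at 48 h and -0.147 at 96 h. With 1 library for each treatment and day these values have no replicate check.

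The groups took different values in the Torin1 libraries. Group 4 had a median of 0.36 at 24 h with 6 members at least 2-fold higher, and group 5 had 0.516 with 3 (against 0.849% of all genes). Group 1 had medians of -0.198, -0.528 and -0.549 on the 3 days. At 96 h, 10 of its 40 members with enough counts were at least 2-fold lower (against 0.198% of all genes). Over all members, 2 were at least 2-fold lower on every day and 0 at least 2-fold higher on every day. The level of Xelaev18039459m.g was 1.09 CPM with DMSO and 4.11 CPM with Torin1 at 24 h, 1.07 and 1.8 CPM at 48 h, and 6.55 and 2.66 CPM at 96 h. That of Xelaev18007448m.g was 60.9 CPM with DMSO and 86.6 CPM with Torin1 at 24 h, 189 and 91.6 CPM at 48 h, and 201 and 223 CPM at 96 h.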

How the data were processed

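Poly(A)+ mRNA-seq of spinal cords was analysed in 111 libraries. The authors mapped reads with Bowtie, or Bowtie2 for the Torin1 experiment, to version 9.1 of the transcript models of *X. laevis* and counted them with RSEM (CASAVA 1.7 per the labels; other versions are not given in the sources used here). The deposited expected counts are not normalized, and the TPM values deposited by the authors, scaled to length and library, served only as an alternative. CPM were computed from the expected counts with all 45099 gene models in the total, and log2(CPM + 1) has a pseudocount of 1. The members and lists were chosen with earlier results of these data known.

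Expected counts were rounded and fitted in R 4.3.3 with edgeR 4.0.16 (quasi-likelihood F-test after TMM scaling; p adjusted by Benjamini-Hochberg, threshold 0.05), keeping genes with at least 5 counts in at least 4 libraries of the fit; DESeq2 1.42.0 was an alternative. Transected and sham libraries of the same series and hour came from the same batch of animals and were a block. Over the 17 pairs of 3 to 15 h, the deviations of the libraries of a pair had a mean correlation of 0.247 (-0.22 to 0.648). The fit of 0 h used S3 and S4 and that of uninjured animals a straight line of hours, both with series as a covariate. On simulated counts, the comparison at 3 to 6 h recovered 84 of 100 genes changed 1.5-fold and 99 of 100 changed 2-fold, with 30795 genes in the simulation. Recovery at 11 to 15 h was 96 and 100 of 100 with 30805 genes. For sham against 0 h at 3 to 6 h, 33 of 100 genes changed 1.5-fold were recovered with 30197 genes. The changed genes were drawn only from genes with higher counts, with the same dispersion for all genes and without series or pair effects. The members varied more, with a median SE of 0.258 at 3 to 6 h against 0.146 over all genes tested, so these recoveries may not hold for them.

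Groups were cut from an average-linkage tree of 1 minus Spearman's correlation at a height of 0.6, after centring each gene within S7 and S8 (Python 3.11.15, numpy 2.4.6, pandas 2.3.3, scipy 1.17.1). The gene models printed are the 2 with the largest early D and the 2 with the lowest late D among members with at least 1 CPM on average. Rules that needed gene symbols, such as pathway lists and cell type markers, could not be applied. The replicates of a window were pools of different hours, so p-values measure only the spread between these pools.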

Additional observations from a re-analysis of the deposited data

Results flagged for a closer look

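The largest or smallest library or pair stood apart from the rest of its window in 12 of the 79 sets of 4 to 10 values examined, by a criterion that chance meets in about 1 of 20 sets. In 3 of them it was the 17 h pair of S5 at 16 to 21 h, with a median difference of -1.15 over all members, -2.45 in group 1 and -1.32 in group 3. The 2 h pair of S3 stood apart in group 2 at 0.5 to 2 h, with -1.33, and the 12 h pair of S5 in group 5 at 11 to 15 h, with 0.244.

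For Xelaev18039067m.g, 4 values stood apart: 1.8 CPM in the transected libraries of 11 to 15 h, 33.6 CPM in the sham libraries of 0.5 to 2 h, 3.03 CPM in the sham libraries of 16 to 21 h and 4.57 CPM in the libraries of 0 h. For Xelaev18043503m.g, it was 39.6 CPM in the transected libraries of 0.5 to 2 h and 38.9 CPM in the sham libraries of 16 to 21 h. For Xelaev18007448m.g, the transected library of 6 h in S3 was low with 112 CPM.

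The test of the change in the transected against sham difference between 3 to 6 h and 11 to 15 h called 26 members lower and 0 higher (edgeR, adjusted p under 0.05). These were 13.3% and 0% of the members, against 0.689% and 0.316% of all genes tested. The median log2 change was -0.437 over the 196 members and -0.00636 over all genes tested. The rule, higher early and lower late, favours this direction. When 1 pair was left out, the lower count ranged from 17 to 40.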

How the results depend on the processing

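The number of gene models that met the rule moved with its settings: it was 298 with a pseudocount of 0.5, 124 with a pseudocount of 2, 473 with a threshold of 0.2 and 50 with a threshold of 0.5. With 1 series left out it ranged from 171 to 323. Without the 17 h pair of S5, an alternative chosen after seeing the data, it was 132.

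The number of members called differently from the reported counts was as follows. Without the replicate block, 14 were lower at 7 to 10 h and 0 higher at 11 to 15 h. At 11 to 15 h 0 were higher with all 72 libraries in 1 fit or with a minimum of 1.5-fold, and 2 without the 12 h pair of S5. The change between the windows was called lower for 41 members with no filter on low counts. When each pair of the window was left out in turn, the higher counts ranged from 3 to 20 at 3 to 6 h, from 0 to 0 at 7 to 10 h and from 1 to 2 at 11 to 15 h, and the lower counts from 5 to 6, from 14 to 19 and from 51 to 63. For the change between windows the lower count ranged from 17 to 40. When either 0 h library was left out, the higher counts were 3 to 3 at 3 to 6 h and 4 to 7 at 7 to 12 h for sham, and 16 to 18 and 0 to 2 for transected libraries, with 0 to 3 lower in the last. The uninjured slope was positive for 2 members and negative for 0 in S7 alone, and positive for 1 and negative for 1 in S8 alone. Over all genes tested, 196 were lower at 3 to 6 h, and 330 with DESeq2, 469 with all 72 libraries and 428 without the 12 h pair of S5. At 7 to 10 h 412 were lower, and 717 and 651 with the latter 2 settings, and at 11 to 15 h 2373 were lower, and 3656 with all 72 libraries. The change between windows was called higher for 99 genes and lower for 216, against 246 and 376 with DESeq2, 356 and 483 with all 72 libraries and 176 and 329 without the 12 h pair of S5, and higher for 61 without the replicate block. The uninjured slope was positive for 508 genes and negative for 872, against 168 and 137 in S7 and 50 and 164 in S8.

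With Torin1 and a pseudocount of 5, the members at least 2-fold higher numbered 8, 0 and 0 at 24, 48 and 96 h, and those at least 2-fold lower 3, 2 and 5. With a pseudocount of 0.5 the lower numbers were 14, 16 and 24. The cause of these movements was not tested. Of the other 144 counts under alternatives, all were within 1.5 times the reported value. No named gene model reversed its direction, and the replicate block changed the call of Xelaev18039067m.g at 7 to 10 h (adjusted p 0.241 without it in edgeR) and of Xelaev18039459m.g for the change between windows (adjusted p 0.0549). Members with few counts limit the depth of these comparisons, and 6 had a mean below 1 CPM.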
